A study of Arabidopsis thaliana with 4 samples.

Results

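The wound-responsive small protein genes of Arabidopsis thaliana were described from their locus codes, AT4G33560, AT4G10270, AT4G10265, AT4G28240 and AT4G05070. A gene was measured where the platform's probe table gives a probe set to that gene alone, and 4 of the 5 loci had such a probe set, among 13355 genes measured by name in all. AT4G10265 was not analysed here. Each of the other loci had 1 probe set, so no choice between probe sets was needed. All 5 genes lie on chromosome 4 in RefSeq's gene table for TAIR10.1, and AT4G10265 and AT4G10270 are direct neighbours there. Whether the probes of AT4G10270 also bind the AT4G10265 transcript was not tested.

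The family is named for transcripts that accumulate after wounding in plants, and its members encode short polypeptides whose molecular role is poorly known. In plant cells short of oxygen, transcription factors of ERF group VII, which oxygen otherwise marks for degradation through their N-terminus, persist and switch on genes for fermentation, sugar use and the oxygen response itself. AT4G33560 and AT4G10270 are known from other Arabidopsis studies as genes induced by low oxygen, while AT4G28240 and AT4G05070 belong to the family by annotation.

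Roots of 3-week-old seedlings of the wild-type accession Col-0, with no transgene or mutation named in the labels, were profiled on 4 one-colour Affymetrix arrays. In both groups the seedlings had been kept for 24 hours in liquid medium holding 3% sucrose and then stood in foil-covered canisters for 5 hours, and roots were cut off afterwards. The 2 low oxygen replicates stood in canisters flushed with gas of 0.1% oxygen and sealed, and the 2 normal oxygen replicates in canisters that were not sealed. RNA of 5 seedlings grown on 1 dish was pooled for each replicate. Flushing and sealing went with low oxygen in both replicates, so their effects and that of oxygen cannot be told apart. The values are log2 RMA expression values, in which a difference of 1 is a doubling of signal, and a level is not comparable between probe sets of different genes. An RMA value carries no detection call.

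The arrays fell into their labelled groups, with Pearson's r across probe sets of 0.996 within each group and between 0.945 and 0.949 across groups. Of the root markers, 5 of 16 were measured by name, at normal oxygen levels between 9.86 and 13.54. All 5 were lower at low oxygen by limma at an adjusted p under 0.05, against 16.3% of all named genes. The largest falls among them were those of EXPA18, a root hair expansin gene (log2 change -3.53), AT1G30870 (-3.31) and EXPA7 (-2.50). AT3G01190 changed by -1.34, and PYK10, an abundant root beta-glucosidase gene, by -0.67, from 13.54 to 12.87. Of the shoot markers, 2 of 12 were measured by name and both were higher at low oxygen, against 14.3% of all named genes. The Rubisco activase gene RCA was at 6.95 ± 0.22 (SD, n = 2) and 8.26 ± 0.16, and the antenna protein gene LHCB4.2 at 6.62 ± 0.09 and 7.04 ± 0.11 (adjusted p = 0.0260). LHCB4.2 did not pass without normal oxygen replicate 2 (adjusted p = 0.1035) or without low oxygen replicate 1 or 2 (0.0529 and 0.1422). The 25S ribosomal RNA control was at 6.90 at normal and 12.84 at low oxygen, and the difference between 5' and 3' control probe sets changed by -0.24 for actin, 0.13 for GAPDH and -0.07 for ubiquitin. The part of these shifts in the members' results was not tested. In whole roots, fewer cells of a type and less RNA per cell cannot be told apart.

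The design asked which root transcripts differ between low and normal oxygen. AT4G33560 and AT4G10270 rose strongly at low oxygen, AT4G05070 rose slightly, and AT4G28240 fell. By limma, with Benjamini-Hochberg adjustment over all 22746 probe sets, all 4 measured members passed at an adjusted p under 0.05, 3 upward and 1 downward. Among all named genes 30.6% passed, 14.3% upward and 16.3% downward, and among all probe sets 33.4% passed, 15.8% upward and 17.6% downward. AT4G33560 and AT4G10270 passed and were at least 2-fold higher, as were 4.51% of named genes. The median log2 change of the 4 members was 1.63, against 0.00 over all named genes. No member lay near that median, with changes of 3.20, 2.66, 0.61 and -0.77. The members were chosen with earlier results of these data known. For all 4 the groups did not overlap, which held for 62.3% of named genes.

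**Figure D1:**
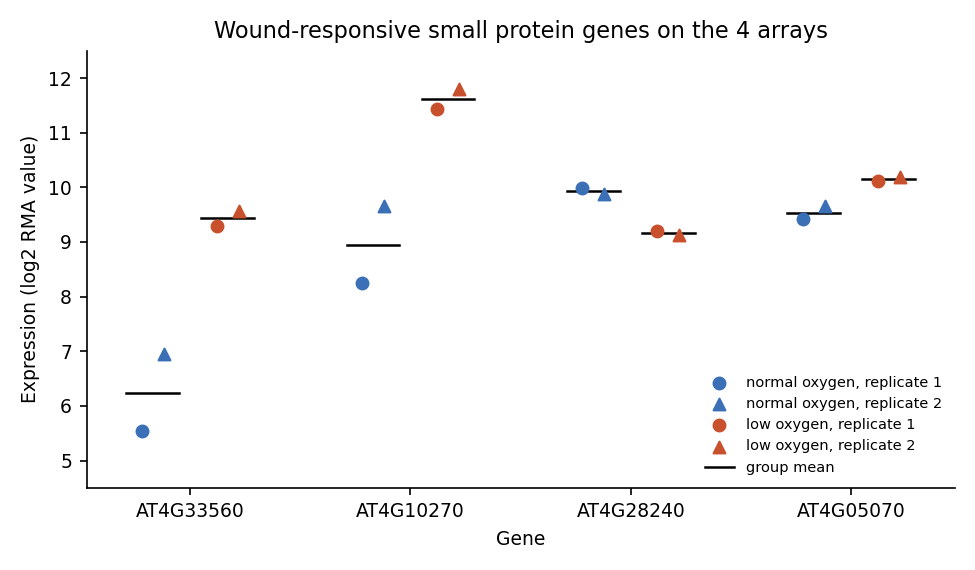
Log2 RMA expression value (vertical axis) of the 4 measured wound-responsive genes on each array. Circles are replicate 1, triangles replicate 2, blue normal oxygen, red low oxygen, and bars the means of 2 arrays. The normal oxygen arrays lie far apart for AT4G33560 (5.53 and 6.94) and AT4G10270 (8.25 and 9.66), and the groups do not overlap for any of the 4 genes.

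AT4G33560, a low-oxygen-induced member, was at 5.53 and 6.94 on the normal oxygen arrays and at 9.30 and 9.57 on the low oxygen arrays. Both low oxygen arrays stood above both normal oxygen arrays, and the normal oxygen arrays lay farther apart than the low oxygen ones. The means were 6.24 ± 1.00 (SD, n = 2) and 9.43 ± 0.20, a log2 change of 3.20 (SE 0.41, 95% interval 2.22 to 4.17, adjusted p = 0.0012), or 9.16-fold. Among named genes, 0.517% had a larger rise.

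The rise of AT4G33560 depended in size on which normal oxygen array was used. It was 3.90 without normal oxygen replicate 2, or 14.9-fold, and 2.49 without normal oxygen replicate 1, or 5.62-fold. In each of these 2 fits the gene's own spread came from the low oxygen arrays only, and limma combined it with a spread shared over all probe sets. The gap between the normal oxygen arrays of AT4G33560 did not enter these fits. The rise was 3.33 without low oxygen replicate 1 and 3.06 without low oxygen replicate 2.

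AT4G10270, the neighbour of the unmeasured AT4G10265, was at 8.25 and 9.66 on the normal oxygen arrays and at 11.43 and 11.79 on the low oxygen arrays. Its normal oxygen replicate 2 was again the higher of the pair, while the groups stayed apart. The log2 change was 2.66 (SE 0.41, 95% interval 1.67 to 3.64, adjusted p = 0.0029), or 6.31-fold, from 8.95 ± 1.00 (SD, n = 2) to 11.61 ± 0.26. Among named genes, 0.846% had a larger rise. The change was 3.36, or 10.3-fold, without normal oxygen replicate 2 and 1.95, or 3.86-fold, without normal oxygen replicate 1. It was 2.84 without low oxygen replicate 1 and 2.47 without low oxygen replicate 2.

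AT4G05070, a member by annotation, was at 9.42 and 9.66 on the normal oxygen arrays and at 10.11 and 10.19 on the low oxygen arrays. The low oxygen arrays were both higher, by less than the rises above. Its log2 change was 0.61 (SE 0.12, 95% interval 0.33 to 0.89, adjusted p = 0.0069), or 1.53-fold, and 8.59% of named genes had a larger rise. This call ended without low oxygen replicate 2 (change 0.57, adjusted p = 0.0540), and the change did not pass when tested against a fold of 1.5 (adjusted p = 1.0000).

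AT4G28240, the other member by annotation, was at 9.98 and 9.88 on the normal oxygen arrays and at 9.20 and 9.12 on the low oxygen arrays. Both low oxygen arrays were lower, and replicates lay close together in each group. It fell by 0.77 on the log2 scale (SE 0.10, 95% interval -1.01 to -0.53, adjusted p = 0.0013), or 1.71-fold. A larger change in either direction was found for 13.9% of named genes. The fall did not pass when tested against a fold of 1.5 (adjusted p = 0.3615).

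**Figure D2:**
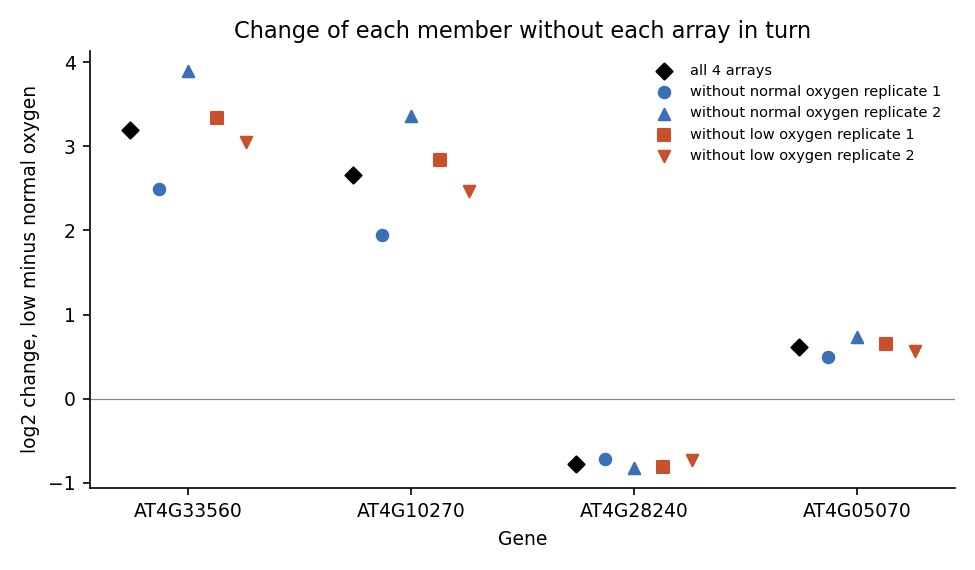
Log2 change between low and normal oxygen (vertical axis) of the 4 members with all 4 arrays (black diamonds) and without each array in turn (blue without a normal oxygen array, red without a low oxygen array). AT4G33560 runs from 2.49 to 3.90 and AT4G10270 from 1.95 to 3.36, both set by the normal oxygen arrays, while AT4G28240 stays between -0.83 and -0.72 and AT4G05070 between 0.49 and 0.73.

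The changes of the members were unlike in size and sign. The change of AT4G33560 exceeded that of AT4G10270 by 0.54, that of AT4G05070 by 2.58 and that of AT4G28240 by 3.97. The change of AT4G28240 minus that of AT4G05070 was -1.38. For each of the 6 pairs, the within-array difference between the 2 members did not overlap between the groups. The pairs are made from the same 4 genes and are not independent. The share among other gene pairs was not computed, and 62.3% of single named genes did not overlap. An exact two-sided permutation test over the arrays gave p = 0.333 for every pair, also after Benjamini-Hochberg adjustment over the 6, and this is the smallest p that 2 arrays against 2 allow. For AT4G33560 and AT4G10270 the within-array difference was nearly the same on both normal oxygen arrays (SD 0.0014) and varied more between the low oxygen arrays (SD 0.063).

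The 2 strongly rising members shared their spread as well as their rise. Normal oxygen replicate 2 exceeded replicate 1 by 1.41 for both AT4G33560 and AT4G10270. Among the 13355 named genes, only the calmodulin-like gene CML38 had a larger gap between the normal oxygen arrays, at 1.59. A gap of at least 1 was found for 9 genes with replicate 2 as the higher and for 0 genes with replicate 1 as the higher. Besides the 2 family members and CML38, the 9 held the low-oxygen-induced genes AT4G24110 (1.22) and AT3G23170 (1.09). These 5 were called higher at low oxygen, and the other 4 were not called. For AT4G05070 and AT4G28240 the gaps were 0.24 and -0.10, sizes that 20.2% and 54.1% of named genes reached.

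On the low oxygen arrays the gaps were smaller. Replicate 2 exceeded replicate 1 by 0.28 for AT4G33560 and by 0.37 for AT4G10270. For AT4G05070 and AT4G28240 the gaps were 0.08 and -0.08. The labels name no difference between the dishes of the replicates.

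**Figure D3:**
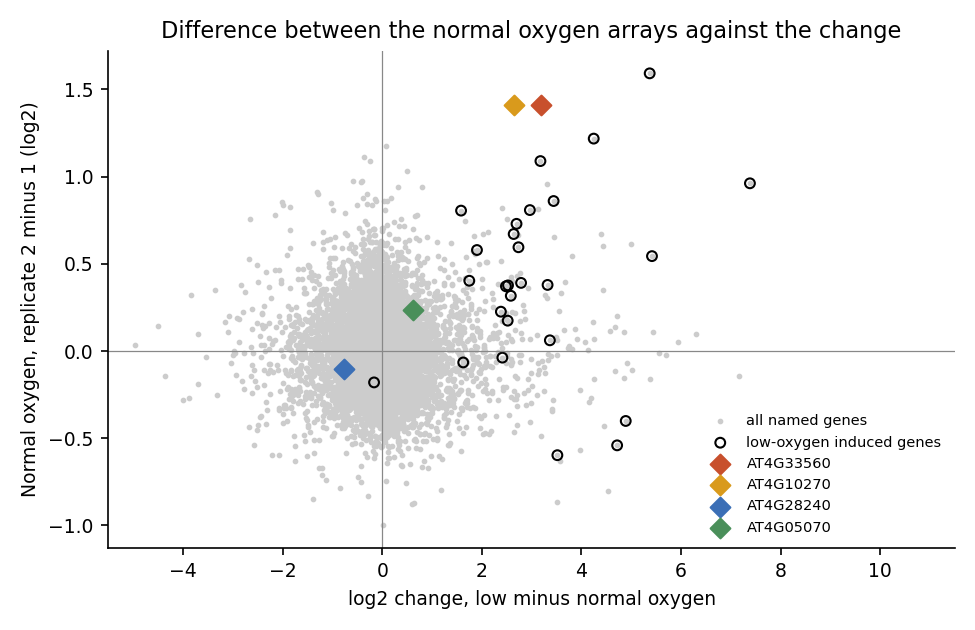
Normal oxygen replicate 2 minus replicate 1 on the log2 scale (vertical axis) against the log2 change between low and normal oxygen (horizontal axis). Grey points are the 13355 named genes, open circles the 27 measured low-oxygen-induced genes and diamonds the 4 family members. AT4G33560 and AT4G10270 lie together at the top right, both at a gap of 1.41, with CML38 above them, while AT4G28240 and AT4G05070 lie within the main cloud.

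Genes known to be induced by low oxygen gave a scale for these values. This list of 49 genes, written from textbook knowledge, leaves out the family, and 27 of its genes were measured by name. The list was chosen with earlier results of these data known, so its count of rising genes is no independent result. Of the 27, 26 rose, 0 fell and 1 did not pass, with a median log2 change of 2.74. Among all named genes 14.3% passed upward. The largest rises were those of AT5G10040 (7.39), AT2G17850 (5.42), CML38 (5.37), AT2G15880 (4.89) and AT3G29970 (4.72). AT5G45960 was at 4.27 and 4.10 (adjusted p = 0.3197). A rise larger than that of AT4G33560 was found for 10 of the 27, and one larger than that of AT4G10270 for 15 of the 27. All but AT5G45960 rose more than AT4G05070.

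The same list was also uneven between the normal oxygen arrays. Replicate 2 was the higher for 21 of the 27 genes, with a median gap of 0.39, against 46.5% of all named genes with a median gap of -0.02. At low oxygen replicate 2 was again the higher for 21 of the 27, with a median gap of 0.16, against 41.8% of all named genes with a median gap of -0.03. These counts are a description of 2 arrays a group, with no test.

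**Figure D4:**
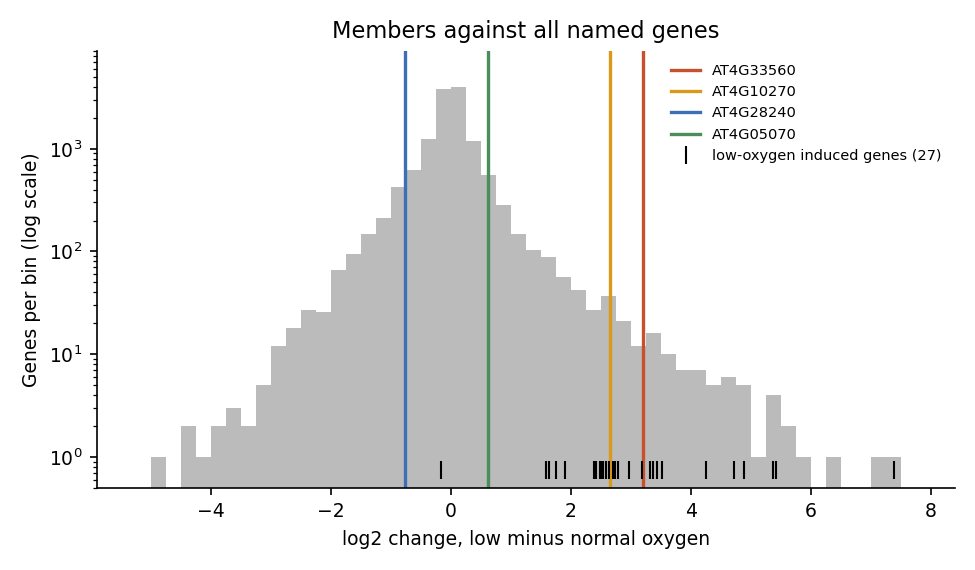
Number of named genes per bin of 0.25 (vertical axis, log scale) by log2 change between low and normal oxygen (horizontal axis). Coloured lines mark the family members and black ticks the 27 measured low-oxygen-induced genes. AT4G33560 (3.20) and AT4G10270 (2.66) lie in the upper tail among the ticks, AT4G05070 (0.61) and AT4G28240 (-0.77) near the centre.

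Of the oxygen-sensing genes, 2 of 12 were measured by name and both rose, as did 14.3% of named genes. Both are also among the 27 measured low-oxygen-induced genes above, so they are not a separate set of genes. AT3G10040, which encodes the trihelix factor HRA1 that restrains the response to low oxygen, changed by 3.44 (SE 0.26, adjusted p = 1.3e-04). Its normal oxygen arrays stood at 7.09 and 7.95, with replicate 2 the higher, as for AT4G33560 and AT4G10270. AT3G03270, the universal stress protein gene HRU1, changed by 2.79 (SE 0.16, adjusted p = 4.7e-05). The ERF group VII factors and the plant cysteine oxidases of the list were not analysed here.

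A list of 41 genes of jasmonate synthesis, jasmonate response and wounding or touch had 4 members measured by name, none of them a synthesis gene. Of these 4, 2 rose, 1 fell and 1 did not pass, while among all named genes 14.3% passed upward and 16.3% downward. The calmodulin-like gene CML37 stood at 3.51 and 3.48 at normal oxygen, near the lowest value on the arrays (2.95), and at 5.81 and 5.34 at low oxygen. It passed upward (adjusted p = 1.4e-04), and it was not tested under a level minimum of 6. The zinc finger factor gene STZ, at 8.67 ± 0.46 (SD, n = 2) at normal oxygen, rose by 0.90 (limma adjusted p = 0.0141). STZ did not pass without low oxygen replicate 1 or without low oxygen replicate 2 (adjusted p = 0.0800 and 0.0835). WRKY53, a transcription factor gene of senescence and defence, fell by 1.28 (adjusted p = 0.0012). PDF1.2, a jasmonate-responsive defensin gene, stood at 5.20 and 4.99 at normal oxygen and at 6.48 and 4.91 at low oxygen (adjusted p = 0.3839). Low oxygen replicate 1 was the high array there, and without replicate 2 of that group the change of PDF1.2 was 1.38. The jasmonate synthesis genes and JAZ repressor genes of the list were not analysed here.

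The genes with the most similar pattern were found by the root mean square difference over the 4 arrays between values centred on each gene's own mean. For AT4G33560 they were AT3G23170 (0.14), AT1G67920 (0.22) and AT2G25735 (0.23), with log2 changes of 3.18, 3.13 and 3.31. AT4G10270 came at rank 6 of 13354 genes, at 0.27. For AT4G10270 the most similar were AT1G72940 (0.25), AT1G76640 (0.25), a calmodulin-like gene, and AT1G32920 (0.25), with changes of 2.70, 2.50 and 2.40, and AT4G33560 came at rank 5. These genes were chosen on the same 4 arrays, so what they share there follows from the choice.

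The members with small changes had closer matches. For AT4G28240 they were AT2G27060 (0.011), AT2G01820 (0.019), which encodes a receptor-like kinase, and AT5G04160 (0.022), with log2 changes between -0.78 and -0.75. For AT4G05070 they were AT2G43030 (0.013), which encodes a plastid ribosomal protein, AT3G14750 (0.016) and AT3G54130 (0.020), with changes between 0.58 and 0.60. The family member nearest to AT4G28240, AT4G05070, was at rank 12125 of 13354, at a difference of 0.70.

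Genes next to the members on chromosome 4 changed in both directions. The 3 nearest protein-coding genes on each side of the 5 loci made up 24 distinct genes outside the family, of which 14 were measured by name. Of these, 5 rose, 3 fell and 6 did not pass, with a median log2 change of 0.18. Among all named genes 14.3% passed upward and 16.3% downward, with a median change of -0.002. Beside AT4G33560, AT4G33540 rose by 0.98 (adjusted p = 4.8e-04), and AT4G33550 was at 7.57 and 7.39 at normal oxygen and at 7.47 and 8.43 at low oxygen (adjusted p = 0.2775).

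Around the pair AT4G10265 and AT4G10270 the changes were unlike each other. ATHSP22.0, the gene of an endoplasmic reticulum small heat shock protein, rose by 2.99 (adjusted p = 7.9e-06) from a level of 4.64. AT4G10260, directly before the pair, was at 4.49 and 4.58 (adjusted p = 0.7255). AT4G10280, directly after it, fell by 0.79 (adjusted p = 0.0055).

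AT4G28240 lay between genes that fell by similar amounts. AT4G28230 fell by 0.77 (adjusted p = 0.0028) and the beta-expansin gene EXPB3 by 1.02 (adjusted p = 0.0014), while AT4G28260, the next gene after EXPB3, rose by 1.02 (adjusted p = 0.0013). Beside AT4G05070, AT4G05060 rose by 0.94 (adjusted p = 4.4e-04) and AT4G05040 by 0.54 (adjusted p = 0.0082). AT4G05080 was at 3.45 and 3.42 (adjusted p = 0.9059).

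**Figure D5:**
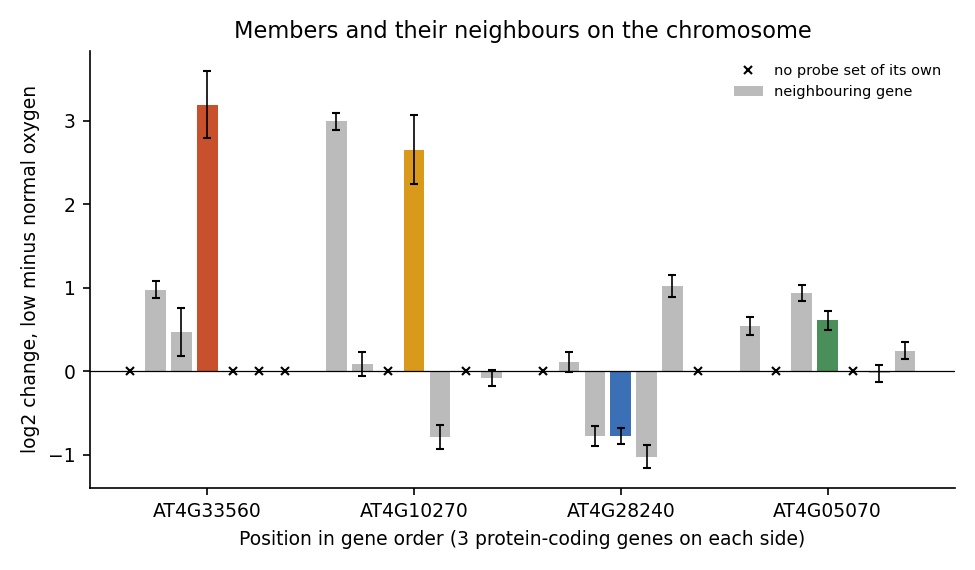
Log2 change between low and normal oxygen (vertical axis, bars with the SE of limma's fit) of the 4 measured members (coloured) and of the 3 protein-coding genes on each side of them in chromosome order (grey). Crosses mark genes with no probe set of their own. No measured gene directly adjacent to AT4G33560 (3.20) or AT4G10270 (2.66) rose by a like amount. Their adjacent genes AT4G33565 and AT4G10265 had no probe set of their own, and ATHSP22.0, 3 genes before AT4G10270, rose by 2.99. AT4G28240 (-0.77) is flanked by AT4G28230 (-0.77) and EXPB3 (-1.02).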

How the data were processed

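Biotin-labelled cRNA from 7 ug of total RNA was hybridised to Affymetrix arrays, as given in the labels' protocols. The deposited table holds log2 values from 2.95 to 13.99. The submitters' processing notes name RMA and limma, with no version. RMA equalises the arrays and hides any change common to all transcripts. Array medians lay between 6.33 and 6.36, and the number of arrays limits the precision.

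Of 22810 probe sets, 64 were controls and were not tested. Genes were named through the probe table, updated by gene identifier in the RefSeq table (13436 of 13513 one-gene probe sets matched). A further 503 probe sets had several genes and 8730 were not listed. The RefSeq table gave chromosome and gene order only, and no coordinates are printed, since no build is named for the arrays.

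The test of low against normal oxygen used limma 3.58.1 under R 4.3.3 (lmFit, eBayes, 2-sided, no block) over 22746 probe sets, with 2 residual and 4.63 prior degrees of freedom. SEs and 95% intervals come from this fit. Replicate numbers are shared between groups, but no label pairs them. Named were all members, up to 5 called genes per direction and up to 3 others of each list, 3 most similar genes per member and chromosome neighbours. Neighbours and genes with large replicate gaps were added after values were seen. The members and lists were chosen with earlier results of these data known. Alternatives changed the prior, normalization, block, level minimum, threshold, probe set summary and arrays; one for linear values did not apply.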

Additional observations from a re-analysis of the deposited data

Results flagged for a closer look

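The 25S ribosomal RNA control lies outside the gene comparison and was higher on both low oxygen arrays, at 12.94 and 12.74 against 6.54 and 7.26 at normal oxygen, a log2 change of 5.94. Its normal oxygen replicate 2 was also the higher of the pair. Its relation to the family members was not tested. Groups of 2 arrays are too small for a search for single outlying arrays.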

How the results depend on the processing

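The rises of AT4G33560 and AT4G10270 passed under all 13 alternatives run, with adjusted p-values up to 0.018 and 0.034. Over the arrays left out in turn, where the lone array of a group is assumed to vary like the other group, their changes ran from 2.49 to 3.90 and from 1.95 to 3.36. AT4G28240 passed under 12 of 13 (range -0.83 to -0.72) and AT4G05070 under 11 of 13 (0.49 to 0.73). Tested against a fold of 1.5, neither the change of -0.77 of AT4G28240 nor that of 0.61 of AT4G05070 passed. No member changed sign, and calls beyond the replicate spread make this nearly sure beforehand. Each member has 1 probe set, so averaging probe sets could not alter its change, and the threshold of 0.01 used the same fit as the main result. Of the probe sets tested, 3594 rose and 3999 fell. These counts became 1919 and 2179 when probe sets were averaged per gene, where fewer features were tested, 1149 and 1154 against a fold of 1.5, and 2361 higher at an adjusted p under 0.01. The 2 rising jasmonate and wounding genes became 1 with a level minimum of 6, at 0.01 and against a fold of 1.5. Which genes of this list passed also depended on the arrays left out. STZ (change 0.90) did not pass without low oxygen replicate 1. Without low oxygen replicate 2, PDF1.2 (change 1.38) passed in place of STZ (0.89). With the replicate number as a block, 6939 probe sets passed and all 4 members kept their calls (adjusted p up to 0.0128), while LHCB4.2 did not pass (adjusted p = 0.0561). The numbers were not treated as pairs, since no label pairs them. Deviations of same-numbered arrays correlated at 0.02 over all probe sets, which does not speak for single genes. For all 4 members the difference between replicates had the same sign in both groups, and a shared replicate effect in them was not tested.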

Other observations

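The 4 genes that differed by at least 1 between the normal oxygen arrays and were not called at low oxygen were AT3G10930 (gap 1.17, change 0.08), AT5G40590 (1.03 and 0.49) and the plastid-encoded petL (1.11 and -0.36) and rpl32 (1.09 and -0.24). In petL, replicate 2 also exceeded replicate 1 at low oxygen, at 6.69 against 5.92. AT3G10930 was at 7.84 and 7.95 on the low oxygen arrays, between its normal oxygen values of 7.23 and 8.40.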
